A study of Homo sapiens with 24 samples.

Results

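The 9 genes described here form a regulatory axis of the G1 phase of the cell cycle: the CDK inhibitor genes CDKN2A, CDKN2B, CDKN2C, CDKN1A, CDKN1B and CDKN1C, the retinoblastoma gene RB1, the p53 inhibitor gene MDM2 and the transcription factor gene E2F1. They were chosen by gene symbol, and 9 of 9 were listed in each of the 4 deposited expression tables, which list 19283 genes for Hs578T, 18248 for HCC70, 60651 for the KIF20A depletion experiment and 23792 for the KIF20A overexpression experiment. The choice also used a measured pattern, that CDKN2A had no reads in MDA-MB-231 controls and many in the libraries labelled KIF20A overexpression (KIF20A OE). Values from the comparison of those libraries with empty vector (EV) are therefore descriptions with no test.

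Cells commit to DNA replication when cyclin-dependent kinases phosphorylate RB, which then releases E2F transcription factors to switch on genes of DNA synthesis. The INK4 inhibitors (p16 from CDKN2A, p15 from CDKN2B and p18 from CDKN2C) bind CDK4 and CDK6, whereas the CIP/KIP inhibitors (p21 from CDKN1A, p27 from CDKN1B and p57 from CDKN1C) bind cyclin-CDK complexes more broadly. CDKN2A encodes a further protein, ARF, from its own first exon, and ARF blocks MDM2, the ubiquitin ligase that degrades p53, while CDKN1A and MDM2 are themselves transcribed in response to p53. In breast cancer CDKN2A and RB1 are recurrently lost, and MDA-MB-231 is known to carry a homozygous deletion that takes in CDKN2A and CDKN2B. Copy number was not measured here.

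The libraries came from 3 established triple-negative breast cancer (TNBC) cell lines, with 24 poly(A) RNA-seq libraries in 8 groups of 3 biological replicates. Unmodified Hs578T and HCC70 cells were separated by flow sorting into breast cancer stem-like cells (BCSCs, positive for ALDH activity and CD44 and negative for CD24) and non-BCSCs, which had neither property. MDA-MB-231 cells carried a control guide (sgCtrl) or 1 guide against KIF20A, a mitotic kinesin (KIF20A sg1), and in a separate experiment they carried EV or were labelled KIF20A OE. The MDA-MB-231 modifications were made with lentivirus produced in a HEK293-derived packaging line, followed by puromycin selection, and whether cells were kept as pools or clones is not given in the sources used here. Each table was taken as 1 batch, so cell line or experiment and batch cannot be told apart across tables. Likewise, fewer cells of a type and less RNA per cell cannot be told apart in bulk libraries.

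KIF20A, the targeted gene, was measured at 153, 173 and 156 scaled reads (gene counts divided by 1 factor per library) in the sgCtrl libraries and 122, 145 and 91.1 in the KIF20A sg1 libraries, and at 101, 143 and 124 CPM (reads scaled for depth) in EV against 1348, 269 and 896 CPM where the label was KIF20A OE. Reads were recovered from the steps in the values for the depletion and overexpression experiments. For the sorted lines they were inferred per gene, as the smallest whole numbers that fit the ratios between libraries. Reads per library ran from 15971297 to 22182293 in the overexpression table and from 24681218 to 51018667 in the other 3. The libraries labelled KIF20A OE stood apart from their line label: 12 MDA-MB-231 marker genes summed to 8573 to 9111 CPM in EV but 515 to 938 CPM in these libraries, where AXL, NT5E and PLAU were each under 1 CPM and 11 of 12 markers lay below EV. Conversely, 10 genes typical of HEK293-derived cells summed to 83.6 to 101 CPM in EV, with INA, IRS4, LIN28B, NEFL and PAX2 at 0, and to 1786 to 2192 CPM in the labelled OE libraries, with none at 0. The marker lists were chosen with earlier results of these data known, so this separation is a description. The part of these marker differences in the results was not tested, and without the labelled OE libraries the overexpression comparison has no second group. In the sgCtrl and KIF20A sg1 libraries the MDA-MB-231 markers summed to 7120 to 8343 scaled reads, with TWIST1 at 0, and the HEK293 markers to 38.8 to 56.2, with IRS4 and LIN28B at 0. In the sorted lines 6 mesenchymal markers summed to 12523 to 14823 TPM (reads scaled for transcript length and depth) in Hs578T against 107 to 131 TPM in HCC70. Of the sorting markers, the ALDH gene ALDH1A3 rose in Hs578T BCSCs (289 to 706 TPM, adjusted p = 8.39e-06 by limma), while CD44 and CD24 differed by 0.05 and -0.05, and in HCC70 ALDH1A3 (0.17), CD44 (0.04) and CD24 (-0.31) did not pass.

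The DNA just upstream of the members' start sites shows how the loci differ, and 5 stretches are given for the members on which the results turn. CDKN2A has separate starts for ARF and p16, and CDKN2B starts 14 kb from the ARF start of CDKN2A on the same strand. The sequences are from RefSeq on GRCh38.p14, minus strand, read 5′ to 3′, at chr9:21995325-21995574, chr9:21974867-21975107 and chr9:22009306-22009555, with CG dinucleotides in capitals. As printed they hold 24, 19 and 18 CG dinucleotides, against a median of 11 in all 35116 upstream windows of 250 bases. The p16 stretch was cut to 241 bases where an exon of CDKN2A begins, and its full window holds 20. Its last capital C belongs to the CG that was cut.
CDKN2A upstream of the ARF start: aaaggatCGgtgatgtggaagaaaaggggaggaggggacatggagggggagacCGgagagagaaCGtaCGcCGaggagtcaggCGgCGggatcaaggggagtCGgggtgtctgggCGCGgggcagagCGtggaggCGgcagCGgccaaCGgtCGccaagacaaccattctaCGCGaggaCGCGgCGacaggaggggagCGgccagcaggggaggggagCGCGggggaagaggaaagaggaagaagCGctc
CDKN2A upstream of the p16 start: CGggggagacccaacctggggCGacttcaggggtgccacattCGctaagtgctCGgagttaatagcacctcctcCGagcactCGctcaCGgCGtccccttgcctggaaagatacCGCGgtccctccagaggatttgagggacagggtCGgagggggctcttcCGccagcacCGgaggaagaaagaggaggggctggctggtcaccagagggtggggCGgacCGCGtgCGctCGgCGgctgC
CDKN2B: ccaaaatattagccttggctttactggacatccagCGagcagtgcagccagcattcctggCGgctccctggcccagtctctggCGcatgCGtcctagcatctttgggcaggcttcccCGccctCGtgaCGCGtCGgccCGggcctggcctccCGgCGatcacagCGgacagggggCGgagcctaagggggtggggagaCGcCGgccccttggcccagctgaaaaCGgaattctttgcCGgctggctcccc

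The upstream windows of all members but CDKN1C, which had none, were searched on both strands for E2F words (TTTCCCGC, TTTGGCGC, TTTCGCGC and TTTGCCGC) and for the 20-letter p53 consensus site with at most 2 mismatches. Only MDM2 and E2F1 held a match, and matches are in capitals. The windows of CDKN2A, CDKN2B, CDKN2C, CDKN1A, CDKN1B and RB1 held no match of either kind. Those of CDKN1A, CDKN1B and RB1 lie past the first annotated start of the gene. The RB1 window, at chr13:48476200-48476449, lies well inside a gene whose first start is at chr13:48303744. The lack of a match thus does not cover the first starts of these 3 genes, nor sites outside the 250 bases searched. The second (P2) promoter of MDM2, at chr12:68808767-68809001 on the plus strand, held a p53 match from 94 to 75 bases before its start, with 2 mismatches. That stretch was cut to 235 bases where an exon of MDM2 begins, and the positions count from the start at chr12:68809017, not from its last printed base. Of all windows, 85 or 0.242% held such a match. The E2F1 stretch, at chr20:33686386-33686635 on the minus strand, held 2 E2F words, from 33 to 26 and from 20 to 13 bases before the start, and 979 windows or 2.79% held at least 1 such word. The first MDM2 promoter held 1 E2F word and no p53 match. A match describes the letters only.
MDM2 second promoter: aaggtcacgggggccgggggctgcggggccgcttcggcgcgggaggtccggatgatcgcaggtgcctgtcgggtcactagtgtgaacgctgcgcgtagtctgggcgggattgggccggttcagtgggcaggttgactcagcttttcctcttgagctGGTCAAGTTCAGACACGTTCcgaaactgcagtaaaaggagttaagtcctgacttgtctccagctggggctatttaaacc
E2F1: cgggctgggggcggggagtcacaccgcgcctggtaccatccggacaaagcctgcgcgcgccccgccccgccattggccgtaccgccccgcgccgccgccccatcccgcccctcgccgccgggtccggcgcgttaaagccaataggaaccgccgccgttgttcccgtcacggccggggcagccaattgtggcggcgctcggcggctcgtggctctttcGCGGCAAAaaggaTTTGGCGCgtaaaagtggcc

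CDKN2A and CDKN2B are neighbours on chromosome 9p21 (CDKN2A at chr9:21967752-21995301 and CDKN2B at chr9:22002903-22009305, both on the minus strand, GRCh38 with GENCODE 44). CDKN2A had no read in any sgCtrl, KIF20A sg1 or EV library, which allows at most 3 reads, or up to 0.0716 scaled reads in the depletion table and 0.176 CPM in the smallest EV library. The labelled OE libraries held 276, 336 and 353 CPM of CDKN2A, a mean of 322 ± 40.9 (SD, n = 3) and at least 1820-fold above that EV limit. CDKN2B likewise had no read in the 9 control and sg1 libraries and 14.9, 13.6 and 12.2 CPM in the labelled OE libraries, at least 77-fold above the limit. Reads were counted per gene, so p16 and ARF transcripts could not be told apart, and exons of CDKN2A, CDKN2C, CDKN1A and MDM2 overlap genes on the other strand whose reads are separate only if strand was used in counting, which is not stated.

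**Figure D1:**
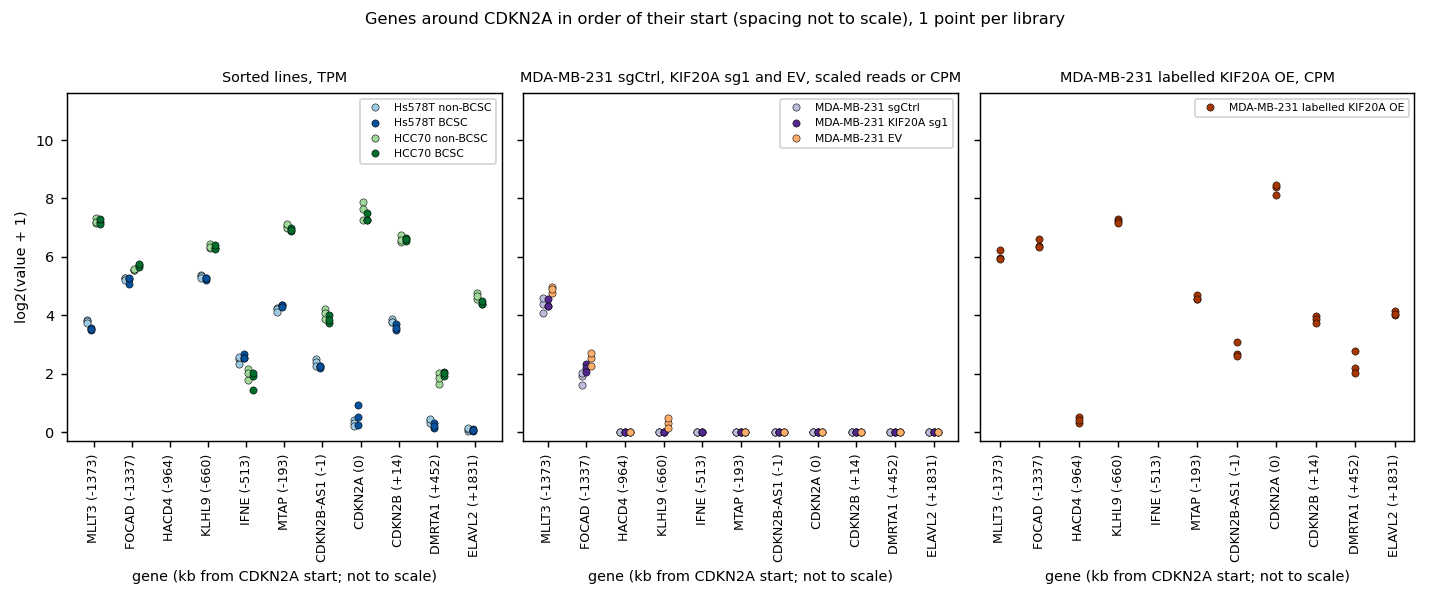
Level of each listed 9p21 gene as log2(value + 1), in order along the chromosome with its distance from the CDKN2A start in kb (spacing not to scale), in the sorted lines (left, TPM), in sgCtrl, KIF20A sg1 (scaled reads) and EV (CPM; middle) and in labelled OE (right, CPM); points are libraries and 0 means no read. CDKN2A, CDKN2B, MTAP and CDKN2B-AS1 have no read in the 9 sgCtrl, KIF20A sg1 and EV libraries, while CDKN2A is at 276 to 353 CPM in the libraries labelled KIF20A OE.

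The neighbours of CDKN2A followed it. Of 11 listed genes within 9p21, 9 had no read in any sgCtrl or KIF20A sg1 library, and the 2 with reads were the outermost on the MLLT3 side: FOCAD (2.07 to 4.05 scaled reads), whose start is at -1337 kb from that of CDKN2A, and MLLT3 (15.9 to 23.2), which encodes a transcription elongation factor. In EV, 7 of 10 listed genes had no read, among them MTAP, which encodes an enzyme of methionine salvage, CDKN2B-AS1, the antisense RNA of the locus, DMRTA1, HACD4 and ELAVL2. All 10 had reads in the labelled OE libraries. There MTAP was at 22.7, 24.6 and 22.6 CPM, at least 132-fold above the EV limit, the neuronal RNA-binding protein gene ELAVL2 at least 89.1-fold, CDKN2B-AS1 at least 33.9-fold and DMRTA1 at least 23.9-fold. HACD4 was at least 1.93-fold above it. KLHL9, an adaptor of a ubiquitin ligase, had 5, 8 and 2 reads in EV and 157, 148 and 143 CPM in the labelled OE libraries, and FOCAD lay at 3.86, 4.78 and 5.59 CPM against 82.0, 96.5 and 79.4. Most of the block without reads in MDA-MB-231 was therefore measured in the libraries labelled OE, far beyond CDKN2A itself.

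The sorted lines differed in CDKN2A as well. In HCC70 it was the highest of the 9 members, with 235, 196 and 152 TPM in non-BCSCs and 153, 154 and 180 TPM in BCSCs, and CDKN2B was next, at 107, 89.4 and 93.9 TPM and 98.2, 92.4 and 97.3 TPM. In Hs578T CDKN2A was near the lower limit, with 0.33, 0.26 and 0.17 TPM (8, 7 and 5 reads) in non-BCSCs and 0.19, 0.91 and 0.45 TPM (5, 25 and 13 reads) in BCSCs, whose ranges overlapped. CDKN2B in Hs578T lay at 10.2 to 13.7 TPM, and MTAP at 16.5 to 19.3 TPM against 118 to 140 TPM in HCC70. On the other side of the locus DMRTA1 had 3 to 12 reads in Hs578T and 55 to 96 in HCC70, and ELAVL2 had 1 to 3 reads against 1015 to 1331. FOCAD (32.5 to 37.9 TPM against 45.7 to 53.3 TPM) lay closer between the lines.

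Per transcript length, the other members except CDKN1C had means from 13.0 to 87.7 TPM in Hs578T non-BCSCs and from 46.3 to 96.8 TPM in HCC70 non-BCSCs. In Hs578T non-BCSCs the order of mean TPM was CDKN2C (87.7), RB1 (65.0), CDKN1B (48.1), MDM2 (41.2), E2F1 (41.1), CDKN1A (31.1), CDKN2B (13.0), CDKN2A (0.253) and CDKN1C (0.0692), and of neighbours in this order the ranges of MDM2 and E2F1 overlapped. In HCC70 non-BCSCs it was CDKN2A (194), CDKN2B (96.8), CDKN1A (78.2), E2F1 (73.4), CDKN1B (70.4), MDM2 (57.2), CDKN2C (54.4), RB1 (46.3) and CDKN1C (0.470), and ranges overlapped between neighbours from CDKN1A to CDKN1B and from MDM2 to RB1. CDKN1C, an imprinted gene, was under 1 TPM in all 12 sorted libraries. Levels in different tables were normalised separately and are not compared by a test.

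**Figure D2:**
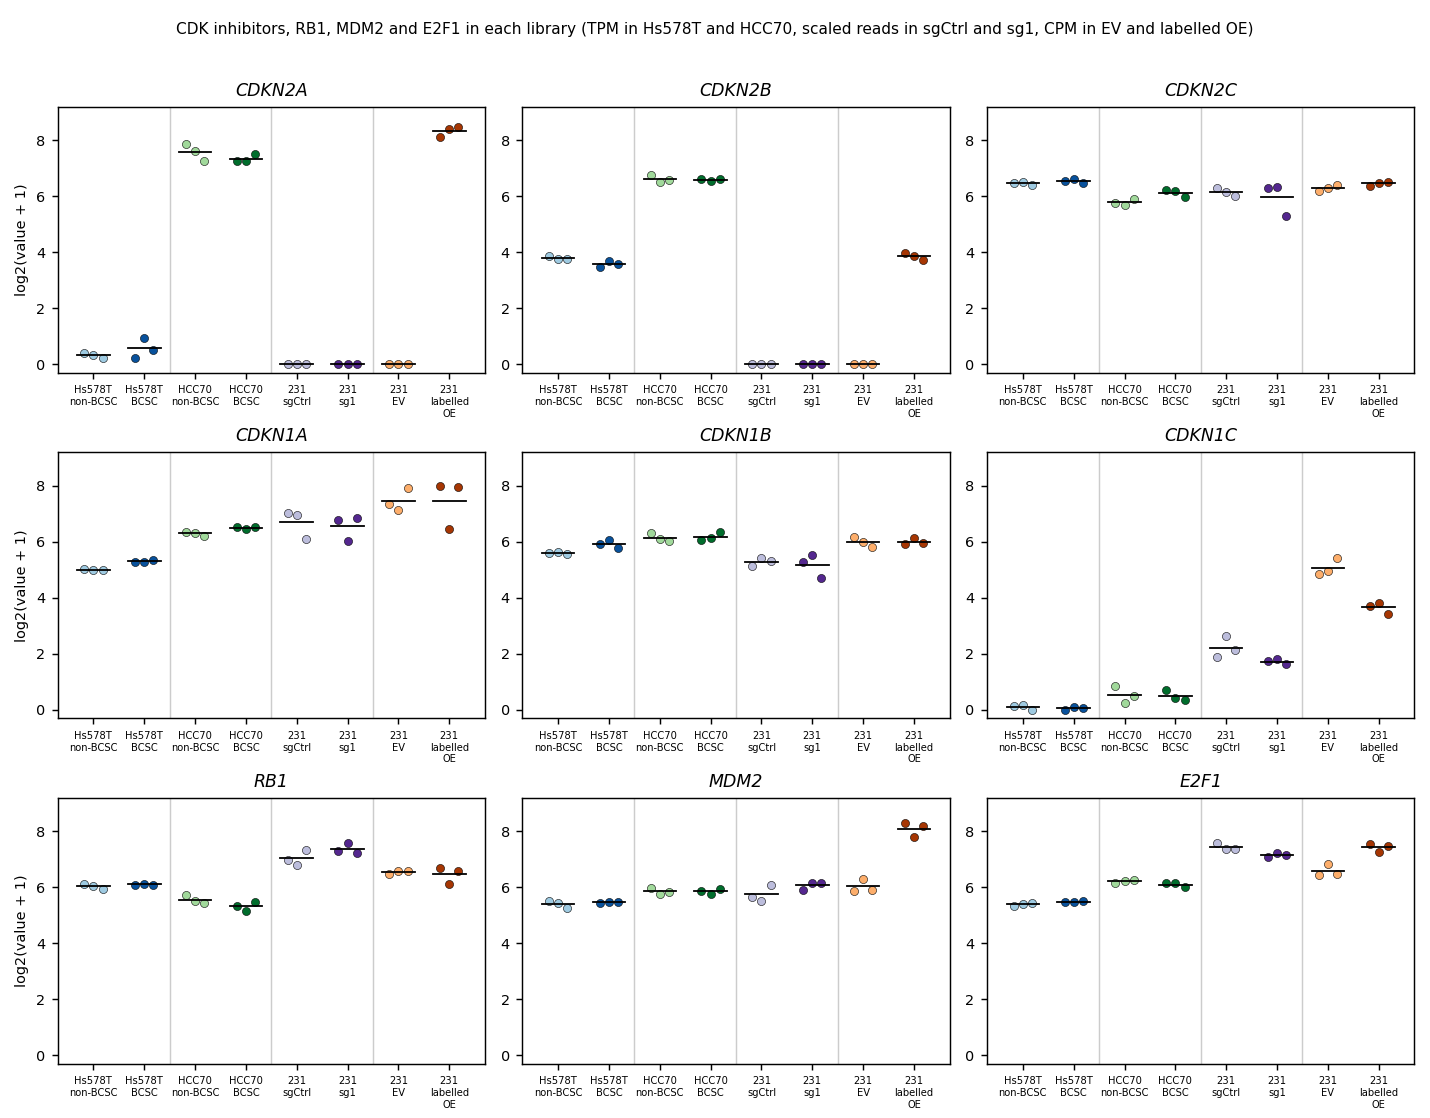
Level of the 9 members in each library, 1 panel per gene, as log2(value + 1) of TPM for the sorted lines, of scaled reads for sgCtrl and KIF20A sg1 and of CPM for EV and labelled OE; points are libraries and bars are means of the plotted values. CDKN2A runs from no reads in MDA-MB-231 controls to 152 to 235 TPM in HCC70, and MDM2 sits at 221 to 316 CPM in the labelled OE libraries against 57.2 to 78.1 CPM in EV.

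The comparison of BCSCs with non-BCSCs asks whether the stem-like fraction differs in this axis. In Hs578T the transcripts of the inhibitors p21 and p27 were higher in BCSCs: CDKN1A was measured at 31.4, 31.0 and 30.9 TPM in non-BCSCs and 38.3, 37.6 and 39.8 TPM in BCSCs. Every BCSC library was above every non-BCSC library, by 0.30 (SE 0.04) on the log2(TPM + 1) scale, with adjusted p = 0.00703 by limma. CDKN1B was at 48.1, 49.2 and 46.9 TPM in non-BCSCs and 59.6, 65.9 and 53.8 TPM in BCSCs, also with no overlap, and rose by 0.30 (SE 0.07, adjusted p = 0.0463). The CDKN1A call held in 6 of 6 fits that each left out 1 library, with adjusted p from 0.00928 to 0.0491, whereas CDKN1B kept its call in 1 of 6, the fit without BCSC replicate 3, with adjusted p from 0.0195 to 0.143. These 2 were the calls among 7 members above the filter of a mean of 1 TPM (CDKN2A and CDKN1C were under it), where 7.15% of 13324 genes were called, 2.9% higher and 4.26% lower.

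The remaining Hs578T members did not pass. CDKN2B was lower in every BCSC library (13.7, 12.7 and 12.6 TPM against 10.2, 11.9 and 10.9 TPM), a difference of -0.23 (SE 0.07, adjusted p = 0.0924), and it passed without BCSC replicate 2, at -0.28 with adjusted p = 0.0408. E2F1, the activator that RB restrains, was at 39.6, 41.5 and 42.2 TPM in non-BCSCs and 43.0, 43.2 and 44.2 TPM in BCSCs, apart by 0.08 (adjusted p = 0.337). For CDKN2C (0.08), RB1 (0.06) and MDM2 (0.07) the 2 fractions overlapped, with adjusted p from 0.405 to 0.603. KIF20A itself rose by 0.45 in Hs578T BCSCs (adjusted p = 0.00718).

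In HCC70, 0 of the 8 members above the filter were called by limma (3 at an unadjusted p under 0.05), where 2.83% of 13218 genes were called, 2.28% higher and 0.552% lower. CDKN2C, whose p18 product inhibits CDK4 and CDK6, was at 53.3, 50.6 and 59.3 TPM in non-BCSCs and 73.5, 71.8 and 62.5 TPM in BCSCs, with every BCSC library above every non-BCSC library. The difference was 0.34 (SE 0.08, 95% interval 0.15 to 0.53, adjusted p = 0.0682), and edgeR on the recovered reads called it (0.33, adjusted p = 0.0436). CDKN1A again lay higher in every BCSC library, at 81.4, 79.5 and 73.8 TPM against 91.1, 87.1 and 90.9 TPM, a difference of 0.20 (SE 0.06) that missed the threshold (adjusted p = 0.0951). E2F1 lay on the other side, at 71.1, 74.1 and 75.1 TPM in non-BCSCs and 69.6, 69.4 and 63.7 TPM in BCSCs, by -0.12 (SE 0.06, adjusted p = 0.246). CDKN2A (-0.24, SE 0.15, adjusted p = 0.368, from -0.40 without non-BCSC replicate 3 to -0.09 without non-BCSC replicate 1), RB1 (-0.24, adjusted p = 0.206, from -0.32 to -0.16 with a library left out), CDKN1B (0.03), CDKN2B (-0.01) and MDM2 (-0.01) overlapped between fractions. KIF20A rose by 0.80 (adjusted p = 0.00157).

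Whether the fraction difference itself differed between the lines was tested in 1 model over the 12 sorted libraries. None of the 7 members in that fit was called by limma (3 at an unadjusted p under 0.05), against 7.11% of 11668 genes. The smallest adjusted p was that of E2F1, whose BCSC difference was lower in HCC70 than in Hs578T by -0.20 (SE 0.07, adjusted p = 0.0912). For CDKN2C it was 0.26 (adjusted p = 0.135), for RB1 -0.30 (0.142), for CDKN2B 0.22 (0.193), for CDKN1B -0.27 (0.205), for CDKN1A -0.11 (0.32) and for MDM2 -0.07 (0.69). The CDKN1A and CDKN1B calls in Hs578T are thus not shown to be different in HCC70.

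**Figure D3:**
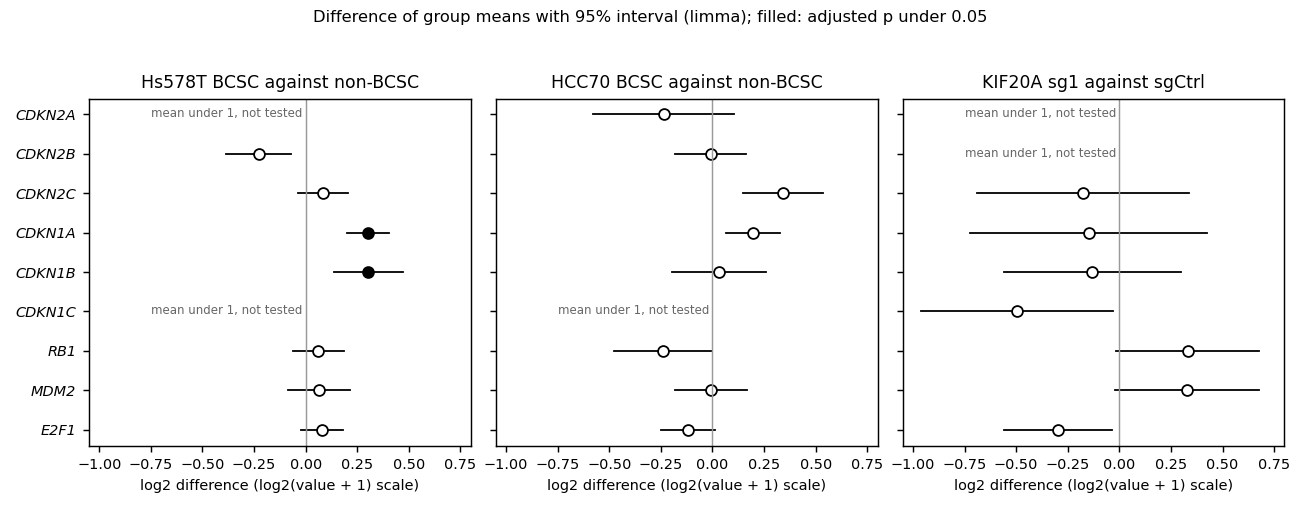
Difference of each member (log2 scale, value + 1) for BCSC minus non-BCSC in Hs578T and HCC70 and for KIF20A sg1 minus sgCtrl; points are limma estimates and bars their 95% intervals, with filled points past adjusted p 0.05. CDKN1A and CDKN1B in Hs578T (both 0.30) are past the threshold.

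KIF20A depletion asks whether the axis moves when the kinesin is targeted. Of 7 members above the filter 0 were called by limma, edgeR or DESeq2 (2 at an unadjusted p under 0.05 by limma), as were 0% of 12852 genes by limma and 0 by edgeR, with 899 and 972 genes at an unadjusted p under 0.05, while DESeq2 called 11 genes, with 1031 at an unadjusted p under 0.05. E2F1 was measured at 193, 163 and 166 scaled reads in sgCtrl and 133, 150 and 140 in KIF20A sg1, lower in every sg1 library by -0.30 (SE 0.12, adjusted p = 0.69). CDKN1C was at 2.68, 5.20 and 3.45 in sgCtrl and 2.34, 2.50 and 2.10 in sg1, also lower in every sg1 library, by -0.50 (SE 0.21, adjusted p = 0.69). Groups that did not overlap were seen in 13% of all genes, against 2 of these 7 members.

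RB1 lay at 124, 111 and 161 scaled reads in sgCtrl and 156, 191 and 150 in sg1, and MDM2 at 49.6, 44.1 and 66.5 against 59.5, 69.6 and 70.2, each a difference of 0.33 with overlapping groups (adjusted p = 0.694). Without sgCtrl replicate 3, where 144 genes were called, MDM2 came to 0.49 (adjusted p = 0.0732) and RB1 to 0.48 (adjusted p = 0.0855). CDKN1A spread from 67.1 to 130 in sgCtrl and from 64.5 to 114 in sg1, wider within groups than between them, at -0.15 (adjusted p = 0.905). CDKN2C (-0.17) and CDKN1B (-0.13) were lowest in sg1 replicate 3, at 38.8 and 24.9. CDKN2C in the other sg1 libraries, at 78.7 and 79.3, lay above sgCtrl (78.1, 70.4 and 63.9), and without sg1 replicate 3 the differences were 0.16 for CDKN2C and 0.10 for CDKN1B. KIF20A differed by -0.45 (SE 0.16, adjusted p = 0.69), with the 3 sg1 libraries below the 3 sgCtrl libraries. These are RNA values, whereas the paper reports KIF20A depletion by guides in MDA-MB-231 cells with an immunoblot of the protein.

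In the libraries labelled KIF20A OE, 5 of 9 members did not overlap EV, where 74.1% of 15265 genes did not, 48.9% higher and 25.2% lower. MDM2 was at 57.2, 78.1 and 59.5 CPM in EV and 316, 221 and 292 CPM in the labelled OE libraries, each of which was above every EV library, by 2.07 on the log2(CPM + 1) scale. E2F1 was at 84.9, 113 and 88.0 CPM against 187, 153 and 179 CPM, higher by 0.86. CDKN1C went the other way, with 27.8, 29.8 and 42.1 CPM in EV and 12.2, 13.3 and 9.74 CPM in the labelled OE libraries (-1.41). Together with CDKN2A and CDKN2B these make 4 members above and 1 below EV. Labelled OE replicate 2, which had the least KIF20A of its group (269 CPM), also had the least MDM2, E2F1, CDKN1A and RB1 but the most CDKN1B (69.7 CPM) and CDKN1C (13.3 CPM).

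The other inhibitors and RB1 overlapped. CDKN1A, a target of p53 like MDM2, was at 162, 138 and 242 CPM in EV and 251, 86.5 and 247 CPM in the labelled OE libraries, so labelled OE replicate 2 was the lowest of the 6. The CDKN1A difference was -0.01 over all 6 libraries, 0.50 without labelled OE replicate 2 and -0.27 without labelled OE replicate 1, so these libraries give it no direction. CDKN2C (0.16), CDKN1B (0.02) and RB1 (-0.08) also overlapped as deposited. These signs are relative to CPM scaling, under which the median gene was 0.37 higher in the labelled OE libraries and 66% of the non-overlapping genes were higher. With median-of-ratios scaling the median shift was 0.03 and 50.4% were higher: MDM2 (1.71), E2F1 (0.49) and CDKN1C (-1.76) kept their sides, whereas CDKN2C turned to -0.20 and RB1 went to -0.44, both then below EV with no overlap. CDKN1B turned from 0.02 to -0.34 and CDKN1A went from -0.01 to -0.37, both still overlapping EV.

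The pathway around the members was described with gene lists that include CDKN1A, MDM2, E2F1 and RB1 themselves. Among E2F targets, genes of DNA replication and cell-cycle entry, 1 of 24 was called by limma in Hs578T, higher in BCSCs. This was CCNA2, which encodes cyclin A2, from 142 ± 9.51 to 191 ± 1.96 TPM (SD, n = 3), by 0.42 (adjusted p = 0.00503). Of the 24 differences 18 were positive and 6 negative, and the list's median was 0.07 against -0.01 for all genes. There edgeR on the recovered reads called 6, beside 1646 of 13324 genes, and limma with median-of-ratios scaling 4, beside 1193 of 13325. In HCC70 0 of 24 were called by limma (6 at an unadjusted p under 0.05), with a median of -0.04 against 0.02, and edgeR on the recovered reads called 2. Of all genes, limma called 7.15% in Hs578T and 2.83% in HCC70. After KIF20A depletion 0 of 24 were called by limma, edgeR or DESeq2 (4 at an unadjusted p under 0.05 by limma), 7 lay below sgCtrl with no overlap and 1 above, where 13% of all genes did not overlap, and the median was -0.07 against 0.00. In the labelled OE libraries 18 of 24 lay above EV and 0 below (all genes: 48.9% and 25.2%), with a median of 1.05 against 0.37 for all genes. With median-of-ratios scaling 15 lay above and 1 below (all genes: 36.6% and 36%), and the median was 0.69 against 0.03. Examples were the replication licensing factor gene CDT1 (59.1 to 329 CPM), the phosphatase gene CDC25A (24.1 to 202 CPM), the transcription factor gene MYBL2 (86.5 to 554 CPM) and the cyclin gene CCNE1 (8.98 to 44.8 CPM).

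Among p53 targets 5 of 24 were called in Hs578T, 2 of them higher in BCSCs and 3 lower, where 7.15% of all genes were called. With 1 library left out 1 to 3 of these targets were called, and 1 with a replicate block. Beside CDKN1A, the death receptor gene TNFRSF10B rose (0.21, adjusted p = 0.0215), while the RNA-binding protein gene ZMAT3 (-0.25, adjusted p = 0.0275), TP53I3 (-0.19, adjusted p = 0.0341) and the apoptosis inhibitor gene TRIAP1 (-0.19, adjusted p = 0.0421) fell. In HCC70 2 of 24 rose, the stress-response gene SESN2, from 30.5 to 31.0 TPM in non-BCSCs and 42.4 to 44.4 TPM in BCSCs (0.49, adjusted p = 0.00594), and the DNA repair gene DDB2 (0.30, adjusted p = 0.046). Of all genes, 2.83% were called in HCC70. The list medians were 0.03 in Hs578T and 0.00 in HCC70, against -0.01 and 0.02 for all genes. After KIF20A depletion 0 of 25 were called by limma, edgeR or DESeq2 (3 at an unadjusted p under 0.05 by limma), with a median of -0.10.

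**Figure D4:**
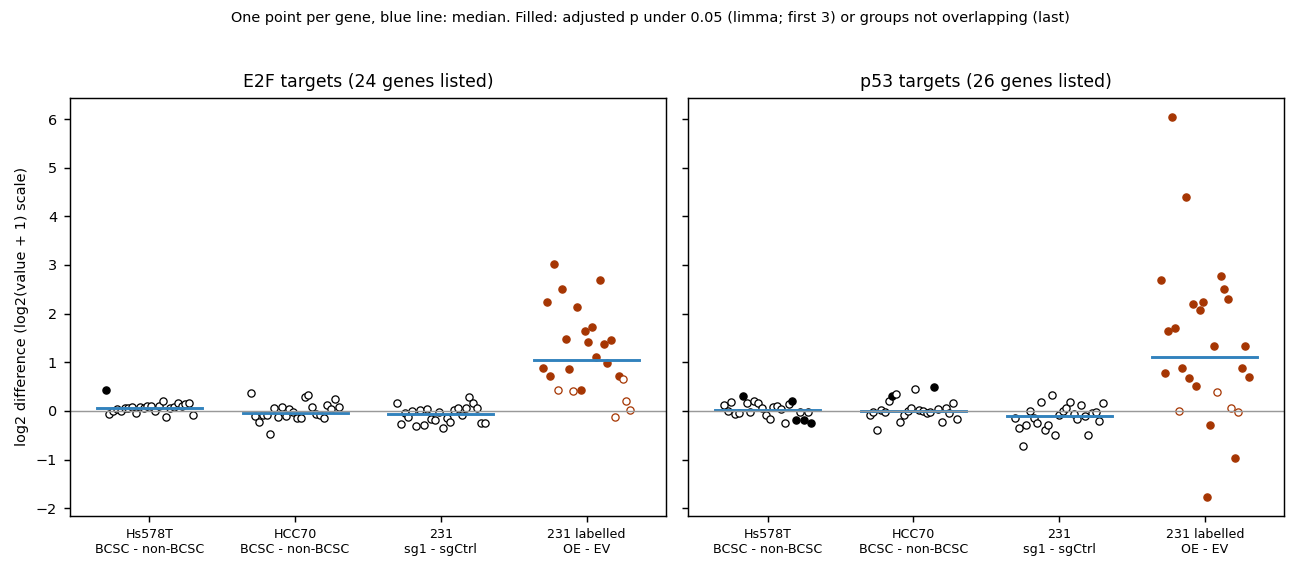
Differences of E2F targets and p53 targets on the log2(value + 1) scale in the 4 comparisons; each point is a gene, the blue line is the list median, and filled points are past adjusted p 0.05 or, in the labelled OE comparison, do not overlap EV. In the labelled OE comparison the list medians are 1.05 for E2F targets and 1.11 for p53 targets against 0.37 for all genes, and in the other comparisons they lie between -0.10 and 0.07.

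In the labelled OE libraries 19 of 26 p53 targets lay above EV and 3 below, where 48.9% of all genes lay above and 25.2% below, with a median of 1.11 against 0.37 for all genes. With median-of-ratios scaling the counts were 15 and 3 and the median 0.75, against 36.6% above, 36% below and a median of 0.03 for all genes. The sestrin gene SESN1 went from 7.71 to 59.9 CPM and the nuclease gene AEN from 28.7 to 192 CPM. BTG2, an antiproliferative gene with about 1 read in EV, was at 72.8 ± 34.7 CPM and the receptor gene EDA2R at 23.1 ± 3.34 CPM against 0.157 ± 0.272 CPM. PLK3, TP53I3 and PMAIP1 lay below EV, and CDKN1A, as above, overlapped.

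Of the RB and E2F family, 1 of 13 was called in Hs578T, E2F5 (0.33, adjusted p = 0.0157), and 0 in HCC70 and after KIF20A depletion (4 and 3 at an unadjusted p under 0.05 by limma). By limma, 7.15% of all genes were called in Hs578T, 2.83% in HCC70 and 0% after depletion. In the labelled OE libraries 6 lay above EV and 1 below, beside 48.9% and 25.2% of all genes: E2F2 was at 5.90 to 12.7 CPM in EV and 70.3 to 88.8 CPM in labelled OE, E2F6 at 27.2 and 50.1 CPM, and the repressor gene E2F7 was lower, at 262 and 85.3 CPM. With median-of-ratios scaling the counts were 4 and 3, beside 36.6% and 36% of all genes. Of the G1 cyclins, kinases and their regulators, CDKN2D, the remaining INK4 inhibitor gene, rose in Hs578T BCSCs (0.21, adjusted p = 0.0443) and CDK6 fell (-0.31, adjusted p = 0.00962), with 8 of 10 not passing, beside the 7.15% of all genes called. None of 10 was called in HCC70 or after depletion by limma (3 and 2 at an unadjusted p under 0.05). In the labelled OE libraries 7 of 11 lay above EV and 4 below, beside the same shares of all genes, and 5 and 4 with median-of-ratios scaling: cyclin D1 (CCND1) was at 1127 ± 254 CPM in EV and 38.3 ± 20.4 CPM in labelled OE, whereas cyclin D2 (CCND2) was at 1.70 ± 2.04 and 51.3 ± 4.49 CPM and SKP2, which targets p27 for degradation, at 10.8 and 60.9 CPM. Of 9 regulators of p53, 7 lay above EV and 2 below, beside 48.9% and 25.2% of all genes. With median-of-ratios scaling their counts were 6 and 2, beside 36.6% and 36% of all genes. Those above included TP73 (14.3 to 45.4 CPM), CHEK2 (15.2 to 49.1 CPM) and PPM1D (25.2 to 64.7 CPM). By limma 0 were called in the sorted lines or after depletion (1 in each line and 0 after depletion at an unadjusted p under 0.05).

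The genes whose pattern was most like that of CDKN2A over the 6 libraries of the overexpression table, by Pearson r of log2(CPM + 1), were RIMS4 (r = 0.999994), DPYSL5 (r = 0.999949) and SHISA8 (r = 0.999913), and 875 of 11360 genes had r above 0.99. These libraries form separate groups, so any gene that parts the groups cleanly scores high. Over the 12 sorted libraries, after removing each line's mean, the genes most like E2F1 were SAC3D1 (r = 0.926), MCM5 (r = 0.89) and TRIM47 (r = 0.879), and those most like CDKN1A were ANTXR2 (r = 0.963), ITGA2 (r = 0.954) and YPEL1 (r = 0.954), of 11667 genes. MCM5, a subunit of the replicative helicase, is also on the E2F target list. The points share library and depth, and no p is given.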

How the data were processed

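The members and gene lists were chosen with earlier results of these data known. Poly(A) stranded libraries were sequenced paired-end, and the submitters' processing notes name HISAT2 2.0.5, featureCounts 1.5.0-p3 and GRCh38. The authors deposited TPM values for Hs578T and HCC70, signal values (gene counts divided by 1 factor per library, called scaled reads here, with library sums of 977394 to 1028621) for the KIF20A depletion, and CPM values for the overexpression experiment. For the depletion and overexpression experiments, 100% of values above 0 were within 0.01 of a whole read. No sample column was left unused.

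Groups followed the labels. Values were tested as log2(value + 1) with limma 3.58.1 trended moderation in R 4.3.3, for genes with a mean of at least 1, within each table, and p-values were adjusted over all genes tested (Benjamini-Hochberg). A difference on this scale understates the change of low genes. The overexpression table was described by whether the groups overlapped. The alternatives were count tests on the reads recovered from each table (edgeR 4.0.16, and DESeq2 1.42.0 for the depletion), another pseudocount and filter, median-of-ratios scaling, a replicate block and leaving out each library. Limits for genes with no read were set at 3 reads per library and cover counting error only. Genes named were all members, KIF20A, the 9p21 genes and, per list and comparison, up to 4 genes with the largest difference past adjusted p 0.05 (in the overexpression table, without overlap and with at least 10 CPM in a group), and the 3 genes most like CDKN2A, E2F1 and CDKN1A. Other genes named, such as TP53I3, PLK3 and PMAIP1, were chosen after their values were seen.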

Additional observations from a re-analysis of the deposited data

Results flagged for a closer look

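4 genes of the pathway lists had a BCSC difference that itself differed between the sorted lines, in the model with both lines: 1 of 13 of the RB and E2F family, also 1 of 24 E2F targets, and 3 of 24 p53 targets, where 7.11% of 11668 genes were called. The p53 target FAS differed by 0.3748 more in HCC70 (adjusted p = 0.0219 by limma), with -0.03 in Hs578T and 0.34 in HCC70, neither past the threshold alone. The p53 target PLK3 differed by 0.6073 (adjusted p = 0.0431), with -0.16 and 0.44. SESN2 differed by 0.3358 (adjusted p = 0.0169), with 0.15 in Hs578T and 0.49 in HCC70, where it passed. RBL1, which encodes the RB relative p107, differed the other way, by -0.2985 (adjusted p = 0.0496), with 0.16 and -0.14. No member of the axis was among these.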

How the results depend on the processing

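Of 589 values under alternatives, 532 kept their call and direction or, where no test was made, moved by less than the replicate spread (counts by less than 1.5 times). Values from edgeR on recovered reads of the sorted lines were added after seeing the data. Members called in Hs578T (2) were 1 without the low-value filter, where CDKN1B had adjusted p = 0.087, and 1 to 2 with a library left out. Members called in HCC70 (0) were 1 with edgeR. E2F targets called in Hs578T (1) were 4 with median-of-ratios scaling, 6 with edgeR and 1 to 2 with a library left out, and in HCC70 (0) they were 1 with a mean of at least 5, 2 with edgeR and 0 to 1. The p53 targets called in Hs578T (5) were 1 to 3 with a library left out, in HCC70 (2) they were 1 without the filter, 1 with median-of-ratios scaling and 1 to 1, and after depletion (0) they were 0 to 1. CDKN2C in the labelled OE comparison reversed to -0.20 with median-of-ratios scaling, and CDKN1B there went from 0.02 to -0.34. With a library left out, signs reversed for MDM2 in Hs578T (-0.003393 to 0.12), for CDKN2B (-0.06 to 0.0663), MDM2 (-0.0517 to 0.0568) and CDKN1B (-0.0572 to 0.11) in HCC70, and for CDKN1A (-0.45 to 0.11), CDKN2C (-0.34 to 0.16) and CDKN1B (-0.31 to 0.10) after depletion, and in the labelled OE comparison for CDKN1A (-0.27 to 0.50), CDKN1B (-0.07 to 0.12) and RB1 (-0.20 to 0.09). Of all genes, edgeR called 1646 in Hs578T (limma 953) and 715 in HCC70 (limma 374, and 32 to 270 with a library left out, 343 to 865 in Hs578T), and in HCC70 no filter gave 178 and median-of-ratios scaling 233. The causes were not tested.

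With the replicate block 669 genes were called in Hs578T, 128 in HCC70, 0 after depletion and 302 in the model of both lines (830 without it); the block left 2 members called in Hs578T and 0 elsewhere, and 1 p53 target in each sorted line. Deviations of same-numbered libraries correlated at 0.0459, -0.063 and -0.0486 in Hs578T, 0.0111, 0.185 and -0.0743 in HCC70 and -0.0451, -0.112 and -0.161 in the depletion table. Differently numbered libraries spanned -0.129 to 0.136, -0.128 to 0.115 and -0.217 to 0.276. In the overexpression table same-numbered libraries gave 0.036, 0.0577 and 0.0142, and others -0.0497 to 0.0093. With so few libraries these values cannot settle whether samples were paired, and the labels give only a number.

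Each group had 3 libraries, the labelled OE libraries differ from EV in most genes, and gene-level values do not separate p16 from ARF.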
